A study of Mus musculus with 6 samples.

Results

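Rufy1, Rufy2 and Rufy3 encode the RUN and FYVE domain proteins, and their transcripts were followed in CAD cells that received a plasmid expressing the microRNA miR-124a-2. All probe sets that the platform annotation assigns to 1 of these genes were taken, which gave 3 of the 18193 genes named on the array and 11 of the 45037 probe sets tested: 6 for Rufy3, 4 for Rufy2 and 1 for Rufy1. Rufy3 was chosen by its rise in log2 signal between these same arrays, and Rufy1 and Rufy2 were taken with it as its paralogs. The differences of all 11 are therefore descriptions of the arrays, and no test is drawn on for them.

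CAD cells are a mouse neuroblastoma line with catecholaminergic features. The 3 control arrays came from cells transfected with the empty plasmid, named RI vector in the labels, and the other 3 from cells transfected with the RIPmiR-124a-2 plasmid, each group with 3 biological replicates. The labels give neither the time after transfection nor the share of cells that took up the plasmid. Since RNA came from the whole culture, a change in fewer cells and a smaller change in every cell cannot be told apart.

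RUN domains bind small GTPases of the Rab, Rap and Arl families, and FYVE zinc fingers bind phosphatidylinositol 3-phosphate on endosomes. Proteins with both link membrane vesicles to the machinery that moves or fuses them. RUFY1 acts with Rab4 and Rab14 on early and recycling endosomes, and RUFY2 is a less studied endosomal paralog. RUFY3, also called Singar1, is abundant in brain, limits the number of axons a neuron forms, binds Rap2 at the growth cone and can tie Arl8-coated lysosomes to dynein. The form of RUFY3 best known from neurons lacks the FYVE domain. miR-124 is among the most abundant microRNAs of neurons.

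The start regions of the 3 genes differ, and they are shown because Rufy3, the gene whose signal moved, is the only 1 of the 3 with more than 1 annotated start in the RefSeq promoter table. Each stretch is the 250 bases before a start site in build GRCm38.p6, 5′ to 3′ on the gene's strand, and capitals mark GGGCGG or its reverse complement, the GC box bound by Sp1, with overlapping matches counted. The first Rufy3 start is at chr5:88564790-88565039 (plus strand), the second at chr5:88583263-88583512 (plus strand), Rufy2 at chr10:62980002-62980251 (plus strand) and Rufy1 at chr11:50431126-50431375 (minus strand).
Rufy3 first start: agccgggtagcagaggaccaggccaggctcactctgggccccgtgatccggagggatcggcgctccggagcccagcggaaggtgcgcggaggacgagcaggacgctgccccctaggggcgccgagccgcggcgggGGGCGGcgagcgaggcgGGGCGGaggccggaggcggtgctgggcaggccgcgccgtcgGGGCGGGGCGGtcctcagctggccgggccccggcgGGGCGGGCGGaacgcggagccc
Rufy3 second start: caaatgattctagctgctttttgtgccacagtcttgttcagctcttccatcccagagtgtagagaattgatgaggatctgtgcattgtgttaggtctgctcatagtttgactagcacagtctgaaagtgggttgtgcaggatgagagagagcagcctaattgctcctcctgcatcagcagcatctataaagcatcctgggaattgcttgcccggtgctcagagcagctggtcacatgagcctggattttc
Rufy2: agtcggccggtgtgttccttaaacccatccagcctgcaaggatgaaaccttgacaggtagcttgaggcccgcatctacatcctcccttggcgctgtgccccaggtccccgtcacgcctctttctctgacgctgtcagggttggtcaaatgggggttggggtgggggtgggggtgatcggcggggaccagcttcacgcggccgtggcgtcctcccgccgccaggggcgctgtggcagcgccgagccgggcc
Rufy1: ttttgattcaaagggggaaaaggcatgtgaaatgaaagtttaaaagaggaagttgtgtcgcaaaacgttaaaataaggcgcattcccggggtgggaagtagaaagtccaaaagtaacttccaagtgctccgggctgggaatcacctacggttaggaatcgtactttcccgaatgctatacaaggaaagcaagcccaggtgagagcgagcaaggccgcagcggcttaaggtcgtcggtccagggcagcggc
The first Rufy3 window was 80.8% G or C with 36 CpG pairs and 6 GC boxes. Only 0.992% of the 32851 windows in the table had a G and C share as high as that, and 32.7% held a GC box. The second Rufy3 window, 18473 bases further along, was 48.0% G or C with 1 CpG pair, no GC box and 1 match to TATAAA, which 12.4% of windows held. The Rufy2 window was 66.8% G or C with 19 CpG pairs, the Rufy1 window 50.0% with 14, and neither held a GC box, against a median of 52.4% and 6 CpG pairs over all windows. TTCAGCACC, the left part of the element bound by REST, was in none of the 4 windows and in 0.30% of all (both strands searched for each motif). The annotation does not say from which start the RNA under a given probe set came.

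The arrays measured a log2 signal, normalised with RMA, for 45101 probe sets including 64 controls. Values ran from 2.59 to 14.39 and correlations between arrays from 0.988 to 0.997. Control probe sets for TrpnX, a bacterial transcript used as a negative control, reached at most 3.54 to 3.70 per array, and signals at or under that height are treated as background. Interquartile ranges were 3.06 to 3.09 in empty vector replicate 1 and plasmid replicates 1 and 2 (narrow arrays) and 3.26 to 3.34 in the other 3 (wide arrays). Spiked poly-A controls averaged 5.96 and 5.97 on the replicate 1 arrays and 5.57 to 5.71 on the other 4, and the 3′ to 5′ log2 ratio of the transferrin receptor control was 1.34 and 1.55 on the replicate 1 arrays and 0.95 to 1.09 on the others. Of catecholaminergic and neuronal markers, 10 of 11 measured were above the TrpnX height on all arrays, among them Th, Dbh, Tubb3 and Snap25, while the neurofilament gene Nefl was above it on 1 array. Above it on all arrays were also 6 of 7 markers of astrocytes and oligodendrocytes and 7 of 10 of fibroblasts, endothelium and blood cells. This height alone therefore does not set the neuronal markers apart. Ptbp1, the splicing repressor that miR-124 is known to target, had a log2 difference of -1.24 (SE 0.12, adjusted p = 0.0179, limma with Benjamini-Hochberg adjustment over all probe sets), although 1 of its 3 probe sets was higher.

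Rufy3 signal was higher with the miR-124a-2 plasmid in 4 of its 6 probe sets, by 1.08 to 1.49 on the log2 scale or 2.12-fold to 2.81-fold, and the other two did not move beyond the spread of the arrays. None of the 4 Rufy2 probe sets and not the single Rufy1 probe set separated the groups. At an adjusted p under 0.05 the fit called 4 of the 11 member probe sets, all of them higher and all of Rufy3. Over all probe sets it called 0.269% in either direction, 0.0600% as higher (27 of 45037) and 0.209% as lower. Values of the groups did not overlap in 4 of the 11, against 13.2% of all probe sets in either direction and 6.28% with the plasmid arrays on top. Because Rufy3 was chosen for this contrast, nothing is read from those counts.

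**Figure D1:**
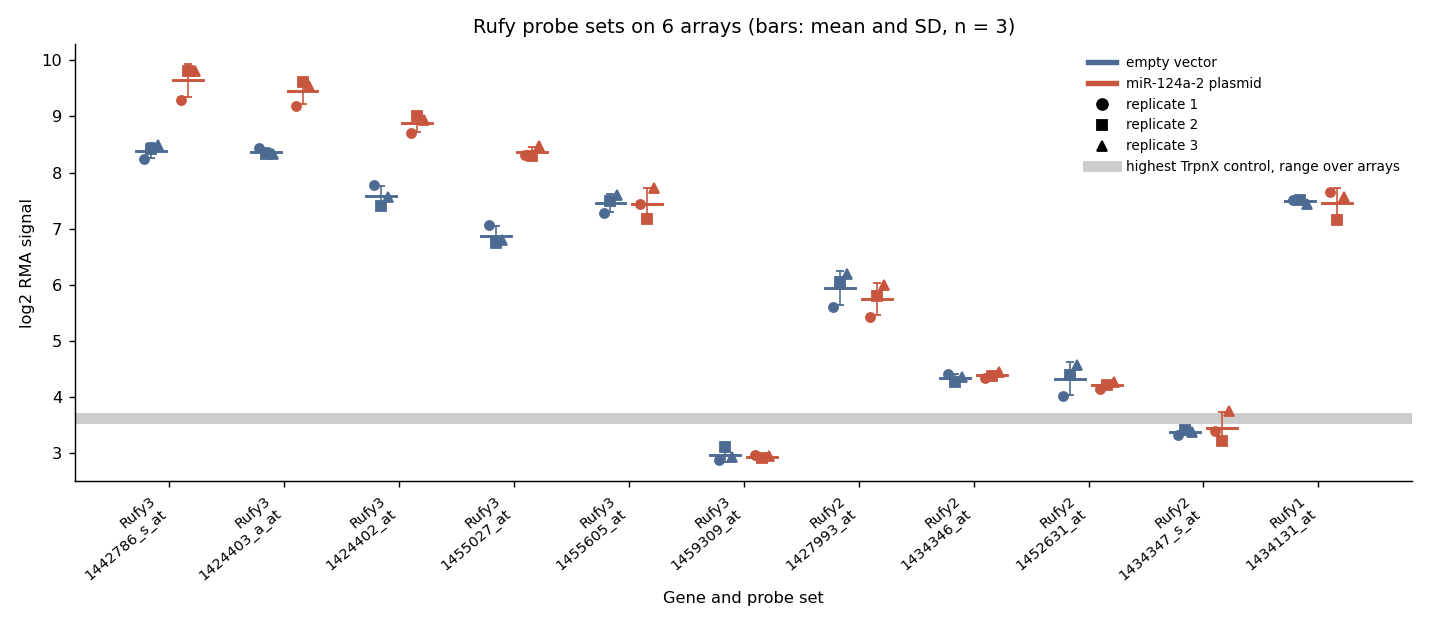
Log2 RMA signal of the 11 Rufy probe sets on each of the 6 arrays, with mean and SD of 3 arrays per group; the grey band spans the highest TrpnX control of each array (3.54 to 3.70). The leftmost 4 Rufy3 probe sets show plasmid arrays above all vector arrays, while the other 7 probe sets overlap; heights of different probe sets are not comparable as amounts of RNA.

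The brightest Rufy3 probe set, 1442786_s_at, read 8.24, 8.43 and 8.50 on empty vector replicates 1 to 3 and 9.30, 9.82 and 9.81 on the plasmid arrays. Every plasmid array lay above every vector array, with 0.80 between the nearest pair, and replicate 1 was the lowest array of both groups. The means were 8.39 ± 0.14 and 9.64 ± 0.30 (SD, n = 3 each), a difference of 1.25 (SE 0.16) or 2.38-fold. Its s_at ending marks probes that can match more than 1 transcript, and the share of related sequences in this signal was not tested.

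Probe sets 1424403_a_at and 1424402_at were designed from the same source sequence and are not independent of each other. The first read 8.44, 8.33 and 8.32 with empty vector and 9.19, 9.61 and 9.54 with miR-124a-2. The second read 7.77, 7.41 and 7.56 against 8.70, 9.01 and 8.94. In both, the groups were apart, by 0.75 and 0.93 at the nearest pair, and replicate 1 was the highest vector array and the lowest plasmid array. Their differences were 1.08 (SE 0.13) and 1.30 (SE 0.13).

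Probe set 1455027_at, from a different source sequence, showed the widest separation of the family. It read 7.06, 6.74 and 6.79 on the vector arrays and 8.31, 8.29 and 8.48 on the plasmid arrays, so that 1.23 lay between the groups. The means of 6.87 ± 0.17 and 8.36 ± 0.10 (SD, n = 3 each) differ by 1.49 (SE 0.12), or 2.81-fold. Among all 45037 probe sets this was the second largest rise, with 1442786_s_at, 1424402_at and 1424403_a_at at places 7, 6 and 16.

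The other two Rufy3 probe sets set the limit of what the array says about the gene. Probe set 1455605_at was well above background and read 7.29, 7.49 and 7.61 with empty vector and 7.45, 7.16 and 7.72 with miR-124a-2. Its groups overlapped across their full width, and both its lowest and its highest value came from plasmid arrays. The difference was -0.02, beside 1.08 in the least changed of the 4 probe sets that rose. The 95% interval of the fit, from -0.37 to 0.34, is given as a description of its precision. Probe set 1459309_at read 2.87 to 3.10 on all 6 arrays, under the TrpnX height on each of them, and carries no measurable Rufy3 signal here. Averaged over its 6 probe sets, Rufy3 rose from 6.94 ± 0.02 to 7.79 ± 0.13 (SD, n = 3 each), or by 0.85, which is lower than in any of the 4 because the unmoved ones enter the mean.

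**Figure D2:**
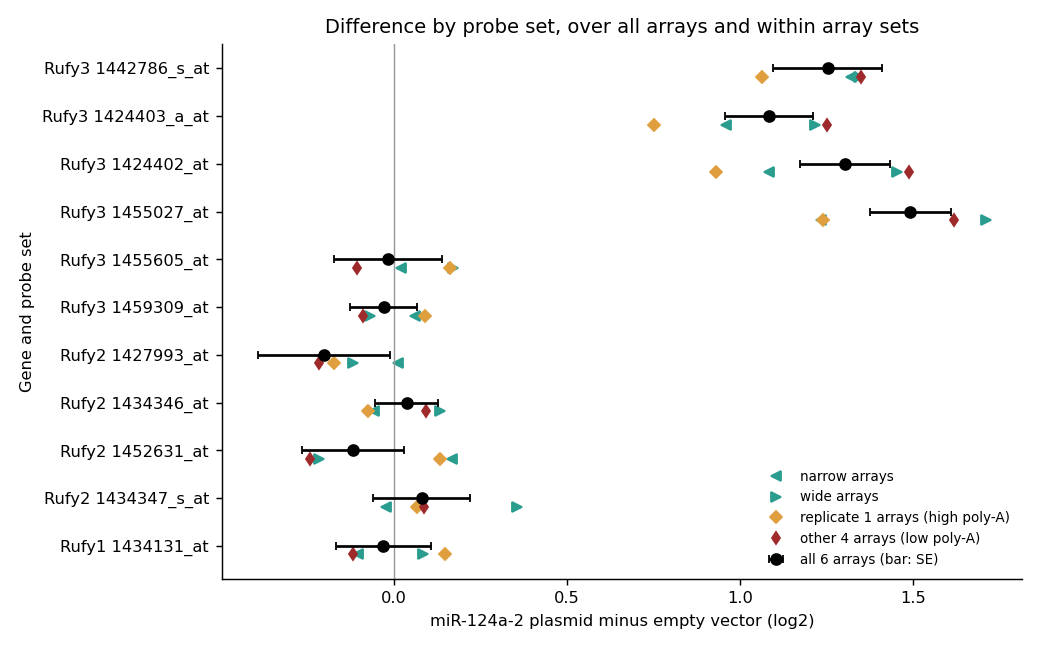
Difference between plasmid and empty vector arrays (log2) for each Rufy probe set over all 6 arrays (black, bar is the SE) and within subsets of arrays (coloured). The 4 Rufy3 probe sets that rose lie between 0.75 and 1.71 in every subset, above 0 by necessity because their groups do not overlap. The other 7 probe sets scatter around 0.

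Since the groups did not overlap in the 4 Rufy3 probe sets that rose, each subset of arrays had to show a rise. Only its size could differ. Within the narrow arrays (1 vector, 2 plasmid) the 4 probe sets were higher by 0.96 to 1.32, and within the wide arrays (2 vector, 1 plasmid) by 1.22 to 1.71. Between the replicate 1 arrays alone, which carried the high poly-A and 3′ to 5′ control values, they were higher by 0.75 to 1.24, against 1.25 to 1.62 over the other 4 arrays. For 1424403_a_at and 1424402_at the replicate 1 value was lower by more than 1.5 times (0.75 against 1.25, and 0.93 against 1.49). The part of labelling in that gap was not tested. The calls did not hold without some of the arrays. Without any 1 of the 3 empty vector arrays, or without plasmid replicate 1, limma called 0 probe sets of the whole table. So 0 of Rufy3 were called there, and 2311 to 4247 of all probe sets had an unadjusted p under 0.05. Without plasmid replicate 2 it called 1 of Rufy3, and without plasmid replicate 3 it called 4. The part of the smaller number of arrays in this loss was not tested. With median centring the brightest Rufy3 probe set was no longer called at an unchanged difference of 1.25, which left 3. The differences themselves stayed between 1.00 and 1.59 for the 4 probe sets over all alternatives run, most of which could move them little or not at all.

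At least 2-fold differences were seen in 22 of all probe sets that were higher and in 112 that were lower. The 4 Rufy3 probe sets are among the 22, as the choice of the gene implies, and 2 of them share their source sequence.

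**Figure D3:**
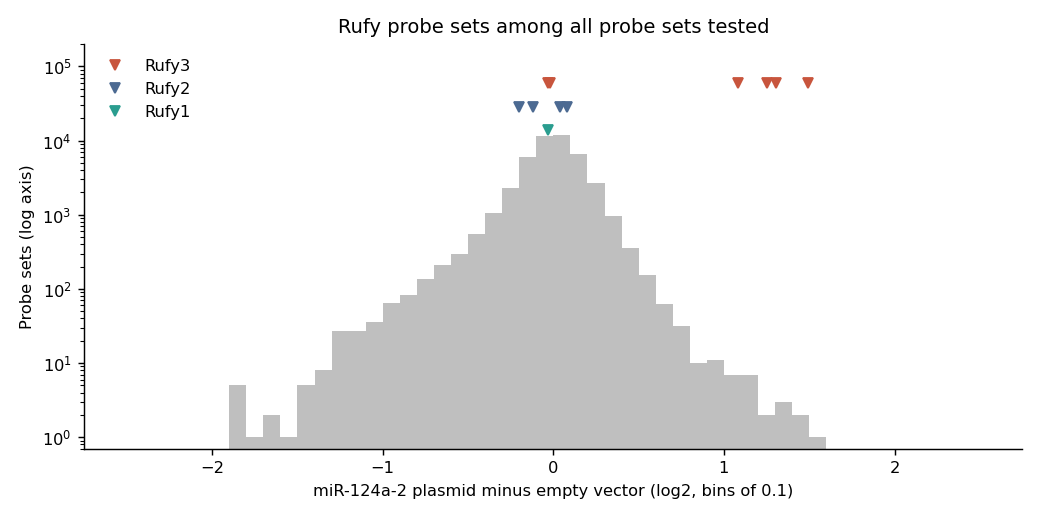
Histogram of the difference between plasmid and empty vector arrays (log2, bins of 0.1) over 45037 probe sets, on a log axis of counts, with the Rufy probe sets as triangles. Rufy3 has 4 triangles in the thin upper tail at 1.08 to 1.49 and 2 just under 0, at -0.02 and -0.03. Rufy1 lies at -0.03 and the Rufy2 probe sets lie between -0.20 and 0.08.

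Rufy2, measured by 4 probe sets from 2 source sequences, showed no separation of the groups. Probe set 1427993_at was the brightest, at 5.60, 6.05 and 6.19 with empty vector and 5.43, 5.80 and 6.00 with miR-124a-2. The replicate 1 array was the lowest of both groups, and the groups overlapped. The means of 5.95 ± 0.31 and 5.75 ± 0.29 (SD, n = 3 each) differ by -0.20, less than either SD, with a 95% interval of the fit from -0.64 to 0.24. Set against the array of the same number, each plasmid array was lower, by a difference of -0.17, -0.24 and -0.19, although the numbers were not taken to pair the arrays.

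The remaining Rufy2 probe sets were dimmer. Among the listed markers of other cell types, the highest with empty vector was Cd3e at 5.62, against 5.95 for 1427993_at. How much of the Rufy2 signal is specific to the gene was not tested. Probe set 1452631_at, from the same source sequence, read 4.01, 4.39 and 4.58 against 4.14, 4.21 and 4.27, and again its replicate 1 arrays were the lowest of both groups. Its difference was -0.12 (SE 0.15). Probe set 1434346_at read 4.27 to 4.41 with empty vector and 4.33 to 4.45 with miR-124a-2, a difference of 0.04 (SE 0.09). Probe set 1434347_s_at was above the TrpnX height on 1 array only, plasmid replicate 3 at 3.75, and read 3.21 to 3.42 on the other 5. Both directions thus occur among these 4 probe sets, and the mean over them was 4.50 ± 0.15 with empty vector and 4.45 ± 0.15 with miR-124a-2 (SD, n = 3 each).

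Rufy1, the Rab4 and Rab14 effector, had a single probe set, 1434131_at, that was well above background. It read 7.51, 7.51 and 7.44 with empty vector and 7.65, 7.15 and 7.56 with miR-124a-2. The plasmid arrays fell on both sides of the vector arrays, with replicate 2 the lowest of all 6. The means of 7.49 ± 0.04 and 7.45 ± 0.27 (SD, n = 3 each) differ by -0.03, with a 95% interval of the fit from -0.35 to 0.29. That interval is given as a description of the precision of the fit, and it holds small changes in either direction.

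The genes whose pattern over the 6 arrays was most like that of Rufy3 probe set 1442786_s_at were sought among 18190 genes, each by its brightest probe set after subtraction of its own mean. The measure was the root mean square of the differences on the log2 scale, where a smaller value means more alike. Gabbr1, a GABA-B receptor subunit, was nearest at 0.14, followed by the kinesin heavy chain gene Kif5a at 0.15 and Ptbp2, the neuronal paralog of Ptbp1, at 0.17. The kinesin light chain gene Klc1 also had 0.17, and Sostdc1, a secreted BMP inhibitor, had 0.20. Their own differences between the groups were 1.10, 1.03, 1.01, 1.00 and 1.06. The genes were picked for likeness to the Rufy3 pattern, so differences of this kind follow from the choice. Nothing is read from them. In Gabbr1 and Klc1 the direction differed between probe sets (3 of 4 and 2 of 3 were higher with miR-124a-2).

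**Figure D4:**
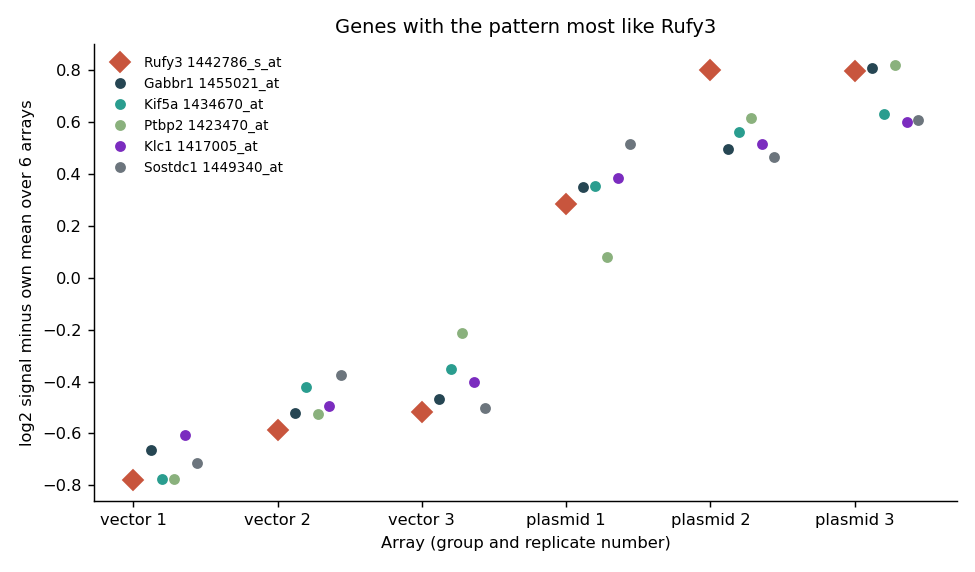
Log2 signal minus each probe set's own mean, for Rufy3 1442786_s_at (diamonds) and the 5 genes nearest to it, on the 6 arrays. All 6 genes lie under 0 on the 3 vector arrays and above 0 on the 3 plasmid arrays, as their choice by likeness implies. They are spread widest on plasmid replicate 1.

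Other genes of the RUN-FYVE pathway were read from 6 lists by the brightest probe set of each gene, 80 measured of 85 listed. None passed the test in either direction (0 called by limma, 12 at an unadjusted p under 0.05, against 1927 or 10.6% of all genes), where 0.423% of all 18193 genes were called, 0.0879% as higher and 0.335% as lower. The median difference of all genes was 0.02, and 54.2% of all genes were above 0. Rufy4, Arl8a and Arl8b were among the 5 genes without a probe set of their own here. For some genes named below, the direction differed between probe sets of the gene. It differed within Dennd5b (2 of 4 higher), Fyco1 (1 of 2), Rap2b (3 of 4) and Fscn1 (1 of 4). So it did within Spag9 (2 of 3), Kif1b (4 of 7) and Borcs7 (1 of 2).

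Of 15 RUN domain relatives of the Rufy proteins, 10 were above 0 with a median of 0.09. The largest values were 0.35 each for Dennd5b, an exchange factor for Rab GTPases, and Rundc3b, which shares a RUN domain with the Rap2-binding protein Rundc3a (adjusted p = 0.605 and 0.238, limma). Fyco1, the closest relative outside the Rufy genes and an adaptor for the outward movement of autophagosomes, had -0.11 (adjusted p = 0.922, limma) and is named for its kinship with its value already seen. Of 19 FYVE domain proteins of endosomes, 9 were above 0 with a median of -0.04. Plekhf2 had -0.59 and the Rab5 effector and endosome tether Eea1 had -0.39 (adjusted p = 0.266 and 0.729, limma). The groups did not overlap in 3 of the 19, Plekhf2 among them, against 16.3% of all genes.

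Of 13 small GTPases that Rufy proteins bind or act with, 9 were above 0 with a median of 0.08. The recycling endosome GTPases Rab4b and Rab4a, partners of Rufy1, had 0.34 and 0.31 (adjusted p = 0.236 and 0.609, limma). The Rap2 genes, whose products bind Rufy3, had -0.15 for Rap2a, 0.05 for Rap2b and -0.07 for Rap2c, none of which passed. Of 10 axon and growth cone partners, 6 were above 0 with a median of 0.01. Crmp1 and Gap43, both abundant in growing axons, had 0.33 and 0.32 (adjusted p = 0.304 and 0.315, limma). Gpm6a, a membrane glycoprotein that recruits Rufy3 at the growth cone, read 3.19 and 3.14 in the 2 groups and was under the TrpnX height on all 6 arrays. The actin-bundling gene Fscn1 had 12.51 and 12.52, and the actin-binding gene Dbn1 had 9.61 and 9.93; these 3 partners and the Rap2 genes were picked for their known link to Rufy3 after the values were seen.

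Of 15 dynein, dynactin and adaptor genes, the machinery to which RUFY3 ties lysosomes, 12 were above 0 with a median of 0.12. The adaptor genes Mapk8ip3 and Spag9 had 0.23 and 0.19 (adjusted p = 0.667 and 0.877, limma). Of 8 genes of the BORC complex and its kinesins, which drive lysosomes the opposite way, 6 were above 0 with a median of 0.14. Kif1b, a kinesin of vesicle transport, had 0.34 and the BORC subunit gene Borcs7 had 0.23 (adjusted p = 0.324 and 0.714, limma).

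**Figure D5:**
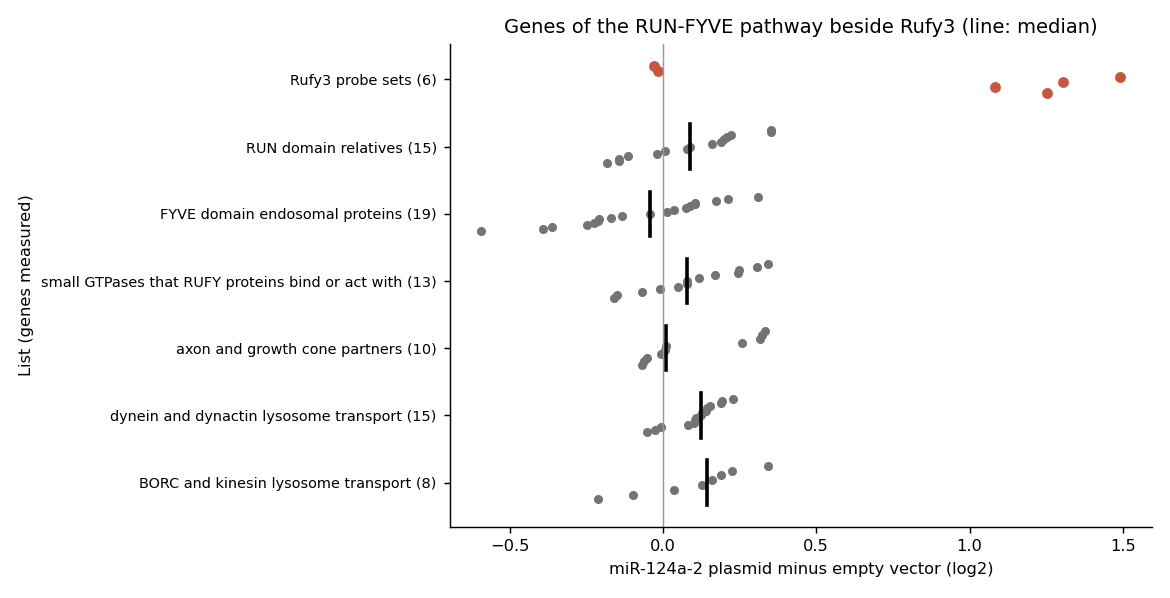
Difference between plasmid and empty vector arrays (log2) for the 80 measured genes of 6 lists, each gene a point and the line the median of its list, with the 6 Rufy3 probe sets on top. The list genes lie between -0.59 and 0.35, and 4 Rufy3 probe sets lie at 1.08 or above.

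No marker of the cell line was called by limma. Of 11 catecholaminergic and neuronal markers, 5 were at an unadjusted p under 0.05 (10.6% of all genes). Above 0 were 10 of the 11 (54.2% of all genes), with a median of 0.36 against 0.02 for all genes. Slc18a2, the vesicular monoamine transporter, had -0.13, and Nefl, near background, had 0.05. Each gene was read by its brightest probe set. Direction differed between probe sets within Snap25 (1 of 2 higher), Ddc (1 of 2), Slc6a2 (2 of 4) and Syt1 (3 of 4). The groups did not overlap in 5 of the 11, against 16.3% of all genes. The log2 of their summed signal was 12.62 to 12.71 on vector and 12.92 to 13.05 on plasmid arrays. Markers of astrocytes and oligodendrocytes (7 measured, median 0.04) summed to 7.70 to 7.85 and 7.67 to 7.97. Those of fibroblasts, endothelium and blood cells (10 measured, median 0.06) summed to 7.79 to 7.87 and 7.73 to 7.91. On all arrays 6 of the first 7 and 7 of the other 10 were above the TrpnX height. Mog, Col3a1 and Aif1 were above it on 1 array each. The part of the shifts in marker signal in the Rufy3 values was not tested.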

How the data were processed

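Per the submitters' processing notes, the authors deposited log2 expression values made with RMA, 1 per probe set and array; its version, the probe definition file and filters are not given in the sources used here. The 64 control probe sets were left out of the fit and no further normalization was applied. Genes were named from the platform annotation (34945 probe sets with 1 gene, 18193 genes), checked by Entrez ID against RefSeq (0 symbols updated). The test was limma 3.58.1 under R 4.3.3, a linear model of the groups of 3 arrays without a block and with moderated variances, two-sided. P-values were adjusted by Benjamini-Hochberg over 45037 probe sets, and probe sets under 0.05 are named called. Data were simulated with independent normal noise for each probe set. There the fit called 10% of added log2 differences of 0.5 and 67.1% of those of 1. Variation that a whole array shares was not simulated, so the shares on the real arrays may differ. The absence of calls in the lists therefore does not show that their genes stayed unchanged. The number of arrays limits precision.

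The members, lists and rules were chosen with earlier results of these data known. All member probe sets are named. From each list come up to 3 called genes with the smallest adjusted p or, with none called, the 2 with the largest difference. To these were added the 5 genes most like Rufy3, and Ptbp1. Alternatives were leaving out each array, blocks, other scalings, a dim filter, variance trends, other probe set rules and thresholds.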

Additional observations from a re-analysis of the deposited data

How the results depend on the processing

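All 161 recomputed differences of the 11 Rufy probe sets over the alternatives moved by less than 1 SD between replicates, and the 4 that rose kept their sign. Most of them had no room to do otherwise. Leaving out 1 of 3 arrays cannot move a difference by 1 such SD, nor reverse a sign where the groups do not overlap. The replicate and poly-A blocks, the dim filter and the variance trends leave a difference as it is. In the 6 pathway lists 0 genes were called in every alternative run. The count of Rufy probe sets called was 4 and lay between 0 and 4 when 1 array was left out; it was 3 with median centring, 0 at an adjusted p under 0.01, and 1 of 3 genes by the brightest probe set or the mean of the probe sets of a gene. Over all probe sets 121 were called, 0 to 356 with 1 array left out (12 without plasmid replicate 2, 356 without plasmid replicate 3), and by genes 77, 0 to 195. Deviations of same-numbered arrays correlated by 0.58, 0.03 and 0.56, so 2 of the 3 pairs varied together and the replicate 2 pair did not. The replicate 1 arrays shared high poly-A and 3′ to 5′ controls and were both narrow. Both replicate 3 arrays were wide, and the replicate 2 arrays differed in width. Vector replicate 2 and plasmid replicate 3, both wide, correlated by 0.34. Vector replicate 1 and plasmid replicate 2, both narrow, correlated by 0.09. The part of array width in these correlations was not tested. The numbers were not taken to pair the arrays, since this needs over 0.1 in all 3 same-numbered pairs. With the replicate block 673 probe sets, 4 of them of Rufy3, and 335 genes were called. The array set as a block gave 510 and 280, a block for the poly-A batch 340 and 179, median centring 39 and 21, quantile normalization 268 and 156, cyclic loess 244 and 149, the intensity trend 218 and 132, and its robust form 229 and 138. An adjusted p under 0.10 gave 305 and 178, one under 0.01 gave 0 and 0, and the fit on the brightest probe set per gene 165 genes. The cause of these shifts was not tested. The dim filter left 4 Rufy probe sets out, and the rules per gene gave no value for single probe sets.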
